A study of Mus musculus with 2 samples.

Results

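Patrolling monocytes were examined within the non-parenchymal fraction of the liver, which leaves out the hepatocytes. They were defined by a rule on UMIs (unique molecular identifiers), each of which stands for an RNA molecule that was captured. A barcode, the label of a droplet and taken here as a cell, needed at least 200 genes and at most 20% of its UMIs from mitochondrial genes. At least 2 of the 6 selecting genes Ace, Cd300e, Eno3, Pparg, Smpdl3b and Treml4 had to be detected, with at least 3 UMIs in sum. Ly6c2, the marker of classical monocytes, was held to at most 1 UMI. C1qa, C1qb and C1qc, which mark macrophages, were held to 10 UMIs in sum. The T cell genes Cd3d, Cd3e and Cd3g had to be at 0, Cd79a, Cd79b and Ms4a1 of B cells at no more than 2, and Stab2, Clec4g and Ptprb of endothelium at no more than 3. The rule found 1681 cells among 24655 barcodes, of which 24093 passed the filter on genes and mitochondrial UMIs. The selecting genes had been taken from a group of cells seen in these same libraries, so their levels are a description of the choice and not a finding.

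The study compared mice that carry the microfibril gene Mfap2 (Mfap2+/+, wild type) with mice that lack it (Mfap2-/-, knockout). Both groups had received CCl4 (carbon tetrachloride), which injures hepatocytes and is used to bring about fibrosis, by intraperitoneal injection over 8 weeks, and no untreated animals were analysed here. Each genotype is represented by 1 library of freshly isolated non-parenchymal cells. The sources used here give no age, sex, strain or number of animals per library, nor the design of the deletion, so genotype, animal and library cannot be told apart and no test between genotypes was possible. All intervals below are exact 95% intervals that cover counting error only.

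Patrolling (nonclassical) monocytes are blood monocytes that crawl along the inner face of vessels, held by the integrin LFA-1, and clear debris and damaged endothelium. In mice they arise largely from Ly6C-high classical monocytes, depend on the nuclear receptor NR4A1 and on the transcription factor C/EBP-beta, and carry high CX3CR1, CD43 and Fc-gamma receptor IV. In the liver they travel in the sinusoids, next to resident macrophages and endothelium.

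The wild-type library held 11783 barcodes with a median of 4685 UMIs, and the knockout library 12872 barcodes with a median of 6511. The libraries had 40 barcode sequences in common, and 0 patrolling monocytes shared one. Mfap2 itself checked the labels: the kept cells held 257 Mfap2 UMIs in the wild-type library and 4 in the knockout library. The patrolling monocytes accounted for 2 of the former and 0 of the latter.

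Patrolling monocytes numbered 697 of 11370 kept cells in the wild-type library, or 6.13% (5.70 to 6.59). They numbered 984 of 12723 in the knockout library, or 7.73% (7.28 to 8.21). The log2 ratio of the shares, knockout over wild type, was 0.34 (0.19 to 0.48), and shares within a library depend on how many other cells were recovered. Patrolling monocytes held a median of 4694 UMIs and 1875 genes in the wild-type library and 5724 UMIs and 2140.5 genes in the knockout library. Thinning every kept cell to 2000 UMIs before the rule, with 2327 and 1689 shallower cells left out, gave shares of 5.45% and 6.86%.

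The share was also set against classical monocytes, the circulating precursor. These were taken as cells with at least 3 Ly6c2 UMIs and at least 2 of Ccr2, Chil3, F13a1, Vcan and Fn1, without markers of the other types. Of patrolling and classical monocytes together, patrolling cells made up 72.7% (69.7 to 75.5) in the wild-type library and 80.9% (78.5 to 83.0) in the knockout library. The log2 ratio of these shares, knockout over wild type, was 0.15 (0.01 to 0.30). The classical group numbered 262 and 233 cells. Of these, 24.4% and 21.5% held 10 or more UMIs of the neutrophil granule genes Camp, Ngp, Ltf, Elane and Prtn3, so that group is not of monocytes alone. Without those cells the patrolling share was 77.9% and 84.3%, a log2 ratio of 0.11 (-0.03 to 0.26). After thinning every kept cell to 2000 UMIs before the rules, with granule-rich cells kept, the share was 82.4% (493 of 598) and 93.0% (757 of 814). Thinning left far fewer classical cells, for which 3 Ly6c2 UMIs were still needed, and the part of this in the shares was not tested.

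The demand for selecting genes was met by 1783 wild-type and 2503 knockout cells, and of these the limit on complement C1q genes turned away the largest number, 837 and 1125. The Ly6c2 limit met 198 and 336 of them. A member held a median of 8 UMIs of the 6 selecting genes in the wild-type library, with a range of 3 to 53, and 11 in the knockout library, with a range of 3 to 69. All 6 genes were seen in 64 and 124 members. Just inside the threshold, at 3 UMIs, lay 70 wild-type and 78 knockout cells. Just outside it, with 2 UMIs from 2 genes, lay 100 and 115 cells. Spn, which encodes CD43 and is not in the rule, stood at 72.7 counts per 1000000 UMIs (CPM) just inside and 45.7 CPM just outside in the wild-type library. In the knockout library these values were 42.2 and 36.3 CPM. Adgre4 and Itgal, also outside the rule, were higher just inside as well, and Mertk was lower. Ccr2, a gene of classical monocytes, was also higher just inside, at 213 against 105 CPM in the wild-type library. In the knockout library Ccr2 stood at 100.4 against 77.1 CPM.

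**Figure D1:**
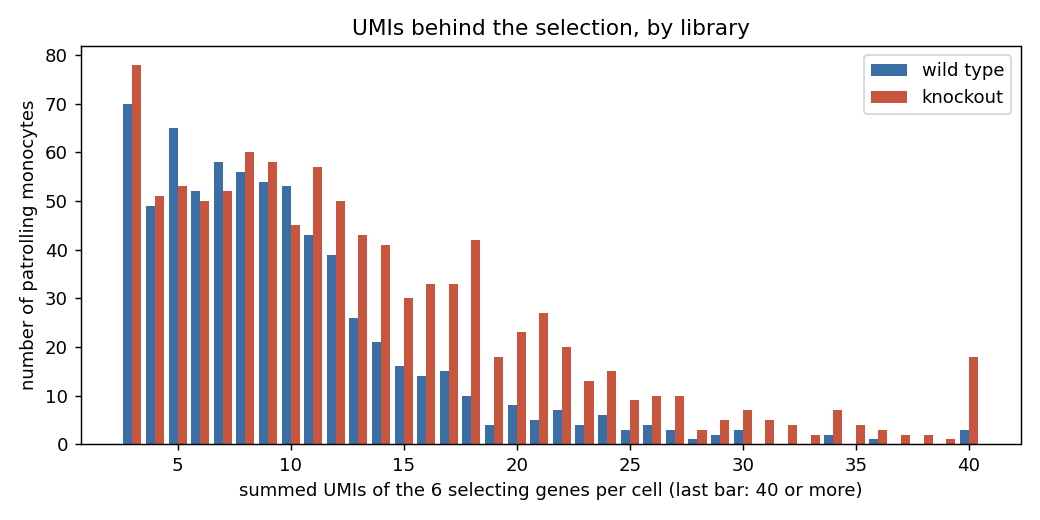
Number of patrolling monocytes (vertical axis) by the summed UMIs of the 6 selecting genes per cell (horizontal axis), for the wild-type (blue) and knockout (red) libraries, with the highest sums pooled in the last bar. The lowest bar, at 3 UMIs, holds 70 and 78 cells, and the medians are 8 and 11 UMIs.

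Levels were obtained by summing each gene's UMIs over the cells of a group and library and scaling the total to 1000000 (CPM). The label was checked with 8 genes that the rule does not use, against the classical group, against C1q macrophages (1771 and 1626 cells) and against B cells (706 and 1152 cells). B cells show how much free RNA from other cells each library carries. Against C1q macrophages, 6 of the 8 stood higher in patrolling monocytes in both libraries, all but Fcgr4 and Csf1r. All 8 stood higher in patrolling than in classical monocytes in both libraries, and 6 of them at least 2-fold. Over all 10233 genes with enough UMIs, 5.39% stood at least 2-fold above the classical group in both libraries and 5.94% at least 2-fold below. The rule fixed much of this contrast by its Ly6c2 limit, so these counts are descriptions.

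Adgre4, an adhesion G protein-coupled receptor of the EMR family, stood at 616 and 665 CPM in wild-type and knockout patrolling monocytes, against 126 and 141 CPM in the classical group. Spn stood at 153 and 142 CPM, against 29.9 and 33.8 CPM. Itgal, the alpha chain of LFA-1, stood at 586 and 488 CPM against 168 and 126 CPM. These genes separated both monocyte groups by well over 2-fold in each library. Ear2, an eosinophil-type ribonuclease, stood at 194 and 208 CPM against 35.8 and 30.1 CPM, and the chemokine receptor gene Cx3cr1 at 177 and 164 CPM against 66.1 and 60.5 CPM. Csf1r, the receptor for the growth factor CSF1, stood at 574 and 502 CPM against 298 and 300.2 CPM. In C1q macrophages Csf1r stood at 718 and 503 CPM, and Cx3cr1 at 139 and 160 CPM. Nr4a1 was high in every group: 1307 and 1381 CPM in patrolling monocytes, 964 and 1071 CPM in the classical group and 875 and 930.5 CPM in B cells. Nr4a1 is also an immediate early gene that tissue dissociation induces.

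Fcgr4, which encodes Fc-gamma receptor IV, stood at 107 and 101 CPM in patrolling monocytes and about 3-fold lower, at 31.1 and 31.2 CPM, in the classical group. In C1q macrophages it was higher than in patrolling monocytes, at 248 and 175 CPM. C1qa, which the rule caps, stood at 226 and 212 CPM in patrolling monocytes and at 233 and 209 CPM in B cells, which had the same cap.

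**Figure D2:**
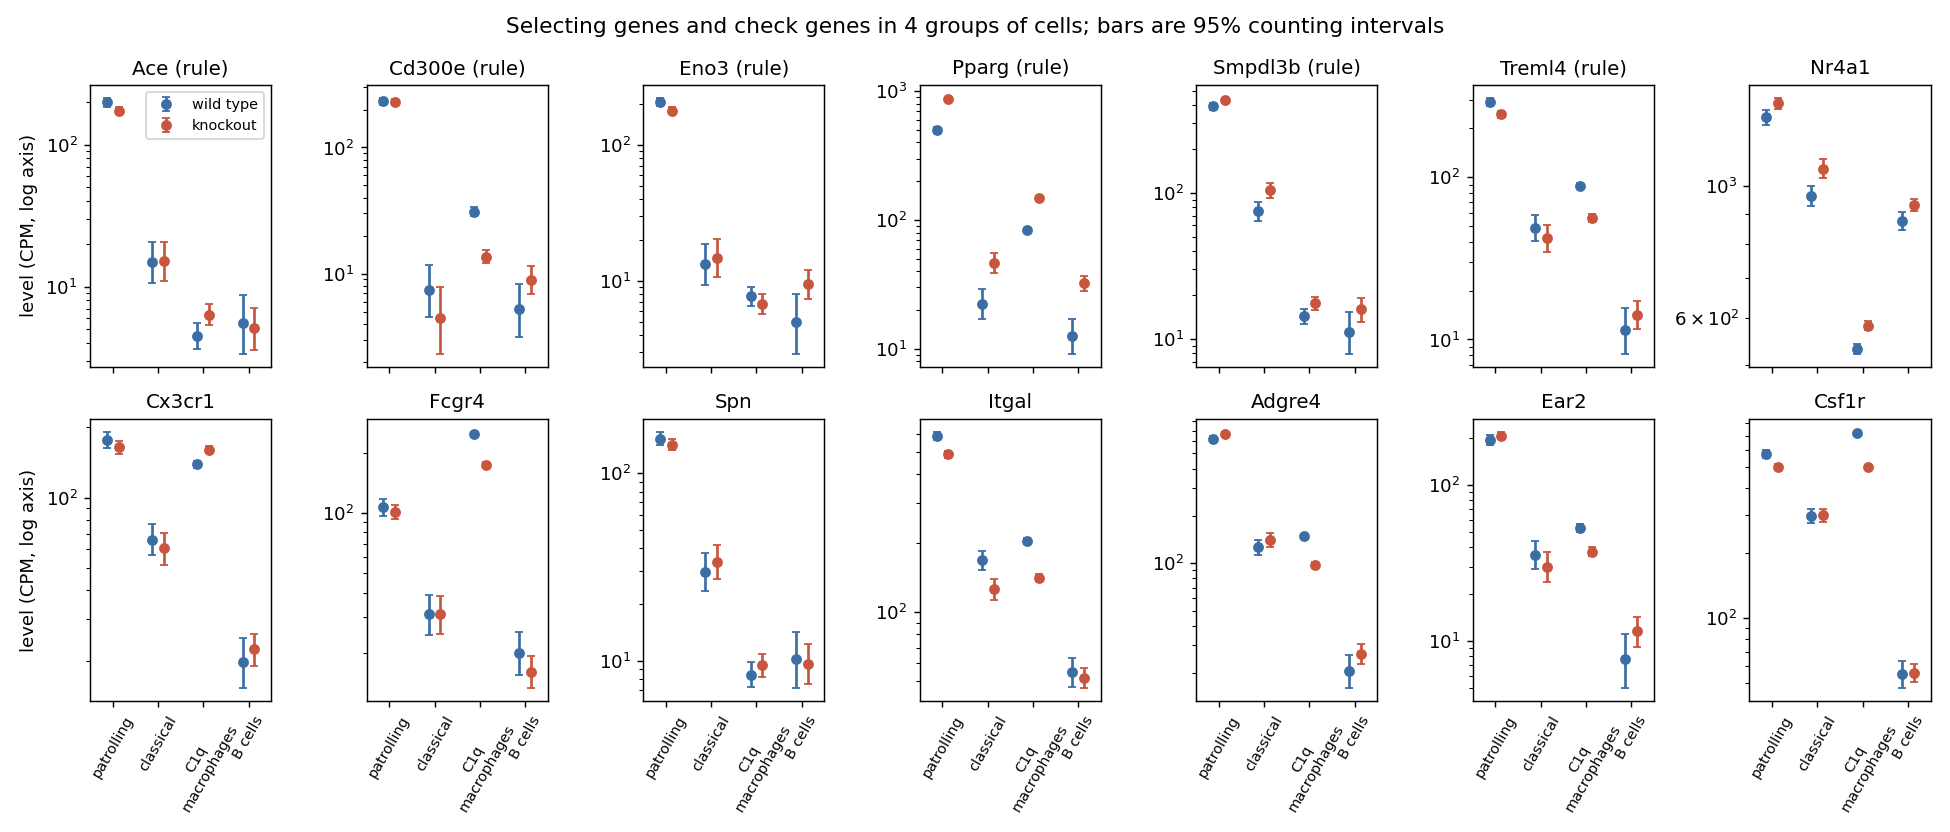
Levels in CPM (vertical axes, log scale) of the 6 selecting genes, marked as part of the rule, and of the 8 check genes, in patrolling monocytes, classical monocytes, C1q macrophages and B cells of the wild-type (blue) and knockout (red) libraries, with 95% counting intervals as bars. Adgre4, Spn, Itgal and Ear2 are highest in patrolling monocytes of both libraries, whereas Fcgr4 is higher in C1q macrophages, at 248 and 175 CPM. Csf1r stands at 718 and 503 CPM in C1q macrophages, against 574 and 502 CPM in patrolling monocytes.

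Shares of cells with a UMI gave a similar picture. Unthinned, Adgre4 was seen in 82.5% and 87.5% of patrolling monocytes and in 6.80% and 8.59% of B cells, at median depths of 4694 and 5724 UMIs against 3891 and 5190.5. At an equal depth of 2000 UMIs per cell, reached by random thinning and without the 44 and 38 patrolling monocytes below it, Adgre4 was seen in 64.8% (61.0 to 68.4) and 66.7% (63.6 to 69.7). The thinned B cell shares were 2.43% and 3.22%. For Spn the unthinned shares were 47.6% and 50.3% against 3.82% and 4.77%, and the thinned ones 26.8% (23.4 to 30.4) and 25.1% (22.3 to 27.9) against 2.003% and 1.39%.

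Promoters of these genes were searched because the genes stood high together in the cells chosen. RefSeq windows on GRCm38.p6, from 250 bases before to 50 bases after each start, were found for 12 of the 14 selecting and check genes, with 15 starts. GAGGAAGT, letters of a PU.1 site (PU.1, encoded by Spi1, is the master factor of myeloid cells), occurred on either strand in windows of 2 genes, Fcgr4 and Adgre4. Of all 32851 promoters in the table, 3.20% held these letters. AAAGGTCA, letters bound by NR4A factors, occurred in 0 of the 12 genes' windows and in 1.51% of all promoters. Both windows with a match are shown because these 2 genes are among the checks of the label. Their coordinates are chr1:171018676-171018975 (Fcgr4, plus strand) and chr17:55749734-55750033 (Adgre4, plus strand), and capitals mark the match, which reads as the reverse complement of GAGGAAGT.
Fcgr4: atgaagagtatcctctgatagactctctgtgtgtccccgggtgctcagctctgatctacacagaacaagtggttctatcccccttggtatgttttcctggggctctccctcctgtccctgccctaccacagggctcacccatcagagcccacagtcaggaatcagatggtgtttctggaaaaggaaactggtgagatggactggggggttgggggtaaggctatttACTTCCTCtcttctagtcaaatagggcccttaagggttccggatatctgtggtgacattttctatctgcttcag
Adgre4: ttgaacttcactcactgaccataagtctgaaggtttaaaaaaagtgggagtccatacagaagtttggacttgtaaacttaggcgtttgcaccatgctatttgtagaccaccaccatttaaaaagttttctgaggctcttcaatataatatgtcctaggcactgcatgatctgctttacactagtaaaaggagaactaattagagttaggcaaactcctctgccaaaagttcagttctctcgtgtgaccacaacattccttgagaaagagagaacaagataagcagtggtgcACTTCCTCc
A match describes the letters of the window and not binding.

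Among the 6 selecting genes the libraries differed most in Pparg, which encodes PPAR-gamma, a lipid-sensing nuclear receptor. The gene lies on GRCm38 chromosome 6, from 115360951 to 115490399 on the plus strand, and overlaps Gm44079 on the other strand. It stood at 502 CPM (480 to 526) in wild-type and 866 CPM (843 to 890) in knockout patrolling monocytes, a log2 ratio of 0.79 (0.71 to 0.86). Because the rule used Pparg, members were also chosen by the other 5 selecting genes alone, an alternative added after the data were seen. Pparg then stood at 468 and 848 CPM, a log2 ratio of 0.86 (0.77 to 0.94), and was seen in 60.3% and 79.6% of cells. The same ratio was 1.05 in the classical group, 0.83 in C1q macrophages and 1.33 in B cells, where Pparg stood at 12.6 and 32.3 CPM. The 4 groups come from the same 2 libraries, and differences between their ratios were not tested.

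The other selecting genes differed less. Ace, angiotensin-converting enzyme (chromosome 11, 105967945 to 105989964, plus strand), stood at 199 and 174 CPM, a log2 ratio of -0.20 (-0.33 to -0.06). Cd300e, an activating immune receptor (chromosome 11, 115051917 to 115062177, minus strand), stood at 232 and 229 CPM. Eno3, an enolase of glycolysis best known in muscle (chromosome 11, 70657202 to 70662513, plus strand), stood at 207 and 179 CPM. Smpdl3b, a membrane phosphodiesterase related to acid sphingomyelinase (chromosome 4, 132732966 to 132757252, minus strand), stood at 392 and 432 CPM. Treml4, a TREM family receptor (chromosome 17, 48264295 to 48275360, plus strand), stood at 291 and 245 CPM. With members chosen by the other 5 genes, the log2 ratios of these 5 genes lay between -0.26 (Treml4) and 0.17 (Smpdl3b). Ace overlaps Gm11651 on the opposite strand, and the strand handling of the counting is not given in the sources used here.

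Between the libraries, 11476 genes had at least 20 UMIs in patrolling monocytes. Their median log2 ratio, knockout over wild type, was 0.06. Of these genes, 13.3% stood at least 1.5-fold higher and 9.45% at least 1.5-fold lower in the knockout library. With no replicate these are sizes and not calls of changed genes. The ratio moved with the length of the gene on the genome. With genes split by length into 4 groups of like size, from the shortest to the longest, the median log2 ratio was -0.24, -0.04, 0.13 and 0.31 in patrolling monocytes. In B cells it was -0.18, 0.02, 0.16 and 0.31. Ribosomal protein genes took 11.6% of wild-type and 8.31% of knockout UMIs in patrolling monocytes, and 12.9% and 9.60% over all kept cells. The part of these shifts in the gene values below was not tested.

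The 12 genes of highest and the 12 of lowest ratio were taken among genes with a mean of at least 100 CPM and, in the library where the gene was higher, a level no lower than in all other kept cells together. Through that library alone passed Mpp7 and Runx1 (knockout) and Id2, Rbm3 and Timm10b (wild type), so for these 5 genes the difference helped decide the choice. Those higher in the knockout library had a median span of 113.9 kb, those lower one of 4.21 kb and all genes one of 25.4 kb. Fyn, a Src family kinase, stood at 365 and 683 CPM, a log2 ratio of 0.90 (0.82 to 0.99). Smad3, the receptor-regulated mediator of TGF-beta signals, stood at 104 and 194 CPM (0.90, 0.73 to 1.07). Cyth3 and Cyth1, exchange factors for ARF GTPases that act on integrin adhesion, had ratios of 0.85 and 0.84. Cyth3 was also among the genes farthest above the classical group, at 307 and 555 CPM against 33.8 and 49.0 CPM.

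Runx1, a transcription factor of blood cell development, stood at 606 and 1125 CPM (0.89, 0.82 to 0.96), against 667 and 990 CPM in all other kept cells. Mpp7, a scaffold protein of cell junctions, stood at 318 and 710.1 CPM (1.16; 364 and 611 CPM in all other kept cells), and Gm15987, a predicted gene, at 207 and 497 CPM (1.26, 1.15 to 1.38). The remaining 5 genes, Gm47283, Plcl1, Cask, Mapkapk3 and Sgk3, lay between 0.83 and 1.11. In B cells the ratios of Fyn, Smad3, Runx1 and Mpp7 were 0.91, 0.67, 0.76 and 0.78, and in C1q macrophages they were 1.03, 0.88, 0.81 and 1.24. Gm15987 overlaps Clec2g on the opposite strand, and Fyn, Runx1, Mpp7, Cask, Plcl1 and Sgk3 also overlap genes on the other strand. Gm15987, Plcl1 and Cyth1 overlap genes on their own strand. The counts of all these genes are therefore uncertain. Gm47283 is placed on chromosome Y, and the sex of the animals is not given.

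Among the 12 lowest, Tgfbi, a matrix protein induced by TGF-beta, stood at 197 CPM in wild-type and 94.2 CPM in knockout patrolling monocytes, a log2 ratio of -1.06 (-1.22 to -0.90). Id2, an inhibitor of basic helix-loop-helix factors, stood at 840.3 and 428 CPM (-0.97, -1.05 to -0.90), against 829 and 671 CPM in all other kept cells. Its ratio was -0.27 in the classical group, -0.14 in C1q macrophages and -0.25 in B cells. Thinned to 2000 UMIs, 64.3% of wild-type and 44.9% of knockout patrolling monocytes held an Id2 UMI, against 23.0% and 22.7% of B cells, and unthinned 80.5% and 72.9% against 40.9% and 45.9%. Tnf, the inflammatory cytokine, stood at 207 and 111 CPM (-0.89, -1.05 to -0.74), with ratios of -0.11, -0.74 and 0.10 in the classical group, C1q macrophages and B cells. Without granule-rich cells the Tnf ratio in the classical group was -0.42. Dusp2, a phosphatase of MAP kinases, stood at 765 and 432 CPM (-0.83).

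Slc7a11, the cystine transporter that feeds glutathione synthesis, stood at 373 and 219 CPM (-0.77, -0.88 to -0.66). Its ratio was 0.27 in the classical group, -0.26 there without granule-rich cells, -0.02 in C1q macrophages and 0.19 in B cells. S100a6, a calcium-binding protein, stood at 819 and 475 CPM (-0.78), and Gabarap, an autophagy adaptor, at 508 and 245 CPM (-1.05). For Gabarap the B cell ratio was -0.84. Pgk1, Rbm3, Scand1, Limd2 and Timm10b had ratios between -0.95 and -0.73. Slc7a11, Rbm3, Scand1, Limd2 and Timm10b overlap genes on the opposite strand, and Slc7a11 and Timm10b also on their own strand.

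**Figure D3:**
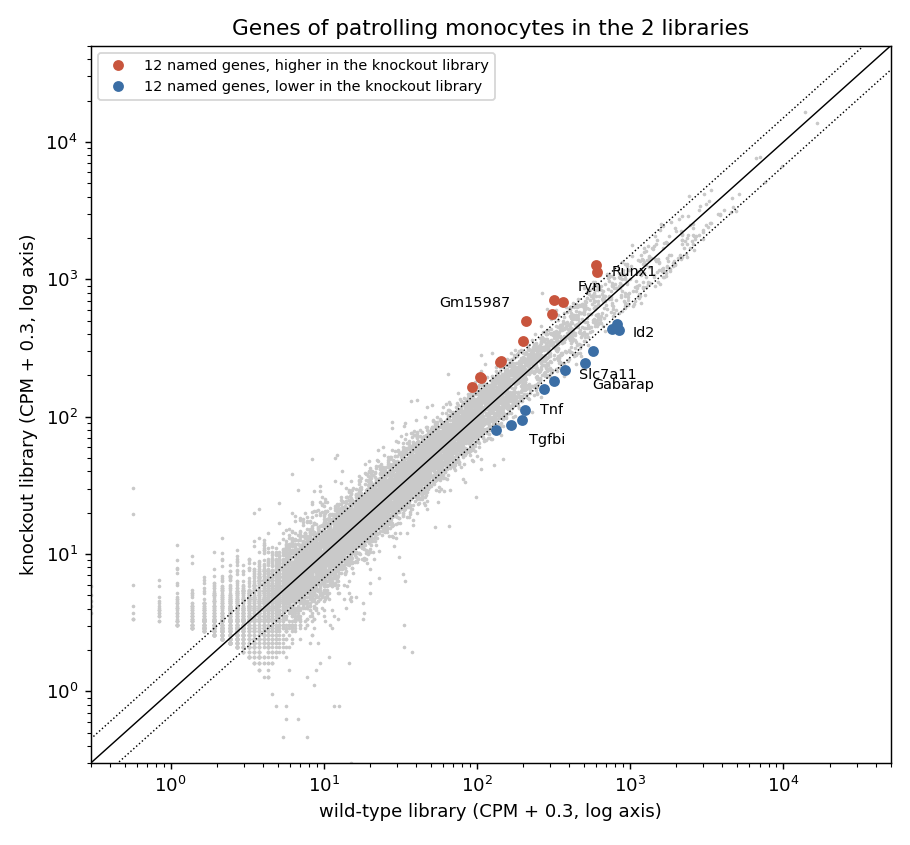
Level of each gene with at least 20 UMIs in patrolling monocytes of the wild-type (horizontal) and knockout (vertical) libraries, in CPM with a small offset on log axes; the solid line marks equal levels, the dotted lines a 1.5-fold difference, and large points the 12 named genes on either side. Runx1 lies at 606 and 1125 CPM above the line, and Id2 at 840.3 and 428 CPM below it.

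Genes of the nonclassical programme differed in both directions between the libraries, each by less than 1.5-fold. The list holds 18 genes outside the rule, of which 0 were at least 1.5-fold apart. Over all genes the shares were 13.3% higher and 9.45% lower. The list's median log2 ratio between libraries was -0.09 (-0.15 to -0.04 under the alternatives). The counting interval lay above 0 for 6 of the 18 genes and below 0 for 6. Dusp16, a MAP kinase phosphatase, stood at 3383 and 4447 CPM (0.39), and Cd36, a scavenger receptor for fatty acids and lipoproteins, at 581 and 796 CPM (0.45). Klf2, a factor of quiescence and trafficking, stood at 3236 and 2410 CPM (-0.43), and Gngt2, a G protein gamma subunit, at 1214 and 958 CPM (-0.34). Bcl2, which keeps cells from apoptosis, stood at 274 and 310 CPM in patrolling and at 44.1 and 45.3 CPM in classical monocytes. Within each library, 14 of the 18 genes stood at least 2-fold above the classical group, against 5.39% of all genes. The Ly6c2 limits of the groups fixed part of this contrast. The list was also chosen with earlier results of these data known, so these counts are descriptions. The median log2 difference was 1.78 and 1.66. Against classical monocytes without granule-rich cells it was 1.45 and 1.45.

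Most of the classical programme stood lower in patrolling than in classical monocytes, and its median was lower in the knockout library. At least 2-fold below the classical group in both libraries were 11 of 15 genes, against 5.94% of all genes. Chil3, F13a1, Vcan and Ccr2 also served to choose the classical group, so part of that contrast was fixed by the choice. Over the programme's 15 genes, without Ly6c2, the median log2 ratio between libraries was -0.31, with 2 higher and 13 lower. Of the lower ones, 4 were at least 1.5-fold apart. Over all genes, 9.45% were that much lower and 13.3% that much higher. In the classical group the same median was -0.29, in C1q macrophages -0.03 and in B cells 0.17. Chil3, a chitinase-like protein of recently recruited monocytes, stood at 130 and 44.5 CPM (-1.54, -1.76 to -1.33). In the classical group it stood at 1126 and 638 CPM. With cells thinned to equal depth, Chil3 was seen in 14.2% of wild-type and 5.39% of knockout patrolling monocytes. The thinned share was also lower in the knockout library in the other groups. It was 60.5% and 48.1% in the classical group, 5.16% and 2.82% in C1q macrophages and 5.29% and 2.35% in B cells. The part of free RNA in the Chil3 difference was not tested. The coagulation factor gene F13a1 stood at 22.5 and 6.35 CPM, a log2 ratio of -1.81, which was -1.08 after thinning. Vcan, a matrix proteoglycan, stood at 14.5 and 4.40 CPM (-1.69). Ccr2, the receptor that draws monocytes out of the marrow, stood at 59.0 and 42.0 CPM (-0.49, -0.75 to -0.22), and its ratio was 0.05 when members needed 5 UMIs of the selecting genes. Lyz2, lysozyme, was level at 2580 and 2536 CPM.

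Over the 22 adhesion and trafficking genes the median log2 ratio was 0.00, between -0.06 and 0.04 under the alternatives. At least 1.5-fold apart was 1 of them, S1pr4 with 18 and 17 UMIs. The shares over all genes were 13.3% higher and 9.45% lower. Pecam1, an adhesion molecule shared with endothelium, stood at 791 and 925 CPM in patrolling and at 27.5 and 50.5 CPM in classical monocytes. The other endothelial markers were low: Cdh5 stood at 10.2 and 9.61 CPM and Kdr at 10.7 and 13.2 CPM, below the B cell levels. Itga4, the alpha chain of VLA-4, stood at 1467 and 1369 CPM, against 290.3 and 386 CPM in the classical group. S1pr5, the sphingosine phosphate receptor that lets patrolling monocytes leave the marrow, stood at 25.5 and 37.1 CPM, a log2 ratio of 0.53 (0.19 to 0.90). Cxcr4, the marrow-retention receptor, stood at 535 and 446 CPM.

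Of the 19 genes of the Fc, CD300 and paired receptor list, 0 were past 1.5-fold. Over all genes 13.3% were higher by as much and 9.45% lower. The list median was -0.16. Under the alternatives this median lay between -0.22 and -0.05, the last after thinning to 2000 UMIs. Activating adaptors stood lower in the knockout library, Tyrobp at 1748 and 1246 CPM (-0.49) and Fcer1g at 2556 and 2103 CPM (-0.28). Their ratios in B cells were -0.25 and -0.22. Inhibitory Cd300a stood at 339 and 451 CPM (0.41) and Lilrb4a at 273 and 366.5 CPM (0.43). Cd300ld, a further CD300 receptor, stood at 244 and 236 CPM against 25.2 and 33.0 CPM in the classical group. Pilrb1 and Pilrb2 are close paralogs, and reads between them may have been split.

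The myeloid transcription factor list had a median of 0.04 over 20 genes, and its sign differed between alternatives (-0.02 to 0.14). Of the list, 3 genes were past 1.5-fold higher and 1 lower, against 13.3% and 9.45% of all genes. Besides Runx1 and Id2, these were Fli1, an ETS factor, at 194 and 305 CPM (0.66), and Irf4 at 2.41 and 10.4 CPM. Spi1 stood at 633 and 506 CPM (-0.32), Irf8 at 139 and 103 CPM (-0.44) and Tcf7l2, a Wnt pathway factor, at 367 and 532 CPM (0.53). Cebpb, on which these monocytes depend, stood at 2165 and 1934 CPM (-0.16).

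Inflammatory cytokines and chemokines had a median of -0.20 over 21 genes, with 6 higher and 15 lower, against 0.22 in the classical group, -0.22 in C1q macrophages and -0.04 in B cells. Its alternatives lay between -0.31 and -0.14. Il1b stood at 3132 and 2476 CPM (-0.34) and Cxcl2, a chemokine for neutrophils, at 3844 and 2982 CPM (-0.37). The anti-inflammatory Il10 stood at 179 and 216 CPM in patrolling monocytes (0.27, 0.14 to 0.41) and at 32.6 and 39.0 CPM in the classical group. Past 1.5-fold were Tnf, Il6 (43 and 36 UMIs) and Ccl7 (31 and 24 UMIs) on the lower side. Ptgs2, the inducible cyclooxygenase, was past it on the higher side, at 33.5 and 54.1 CPM. Of all genes, 9.45% were that much lower and 13.3% that much higher.

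The interferon response list had 10 of 21 genes at least 1.5-fold higher in the knockout library and 0 lower. Of all genes, 13.3% were that much higher and 9.45% that much lower. The list median was 0.30. This median was 0.63 after thinning, 0.68 without the 5 richest cells per gene, 0.54 with CPM averaged over cells, 0.51 without the highest doublet scores, and all its alternatives lay between 0.25 and 0.68. Taking 5 cells from each library can remove a larger part of the smaller wild-type sums, which raises a ratio. The medians of the same list were 0.58 in the classical group, 0.41 in C1q macrophages and 0.54 in B cells. Ifit2 stood at 11.5 and 33.7 CPM (1.52, 1.07 to 2.06), Ifit1 at 19.3 and 46.9 CPM (1.27) and Ifit3 at 8.58 and 19.1 CPM (1.12). These antiviral proteins had few UMIs here. The abundant members differed little: Ifitm3, which blocks viral entry, stood at 1243 and 1292 CPM (0.06) and Ly6e at 594 and 632 CPM (0.09).

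In the heat shock and immediate early list, 8 of 22 genes stood at least 1.5-fold higher and 0 lower. The shares over all genes were 13.3% and 9.45%, and the list median was 0.40. In the classical group, C1q macrophages and B cells this median was 0.46, 0.57 and 0.29. The genes past 1.5-fold were mostly chaperones: Hsph1 stood at 266 and 791 CPM (1.57, 1.47 to 1.67), Hspd1 at 106.5 and 279 CPM (1.39) and Bag3 at 124 and 292 CPM (1.23). Immediate early genes, which dissociation of tissue induces, went both ways, with Fos at 7015 and 7796 CPM (0.15), Junb at 2182 and 1812 CPM (-0.27) and Ier2 at 931 and 659 CPM (-0.50). Hspa1a and Hspa1b are near-identical copies and their split is uncertain.

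Of 20 TGF-beta signalling genes, 6 were past 1.5-fold higher and 1, Tgfbi, lower, against 13.3% and 9.45% of all genes. The list median was 0.37. Its alternatives lay between 0.28 and 0.57, the last without the 5 richest cells per gene. The median was 0.40 in the classical group, 0.53 in C1q macrophages and 0.39 in B cells. The ligand Tgfb1 stood at 202.5 and 174.5 CPM (-0.22), the receptor Tgfbr1 at 126 and 196.5 CPM (0.64) and Nrros, which anchors latent TGF-beta on myeloid cells, at 408 and 627 CPM (0.62). Besides Smad3, Smad7, the inhibitory SMAD, stood at 48.8 and 71.2 CPM (0.54).

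Lipid handling genes had a median of -0.24 over 20 genes, with 4 past 1.5-fold lower and alternatives between -0.31 and -0.16. Over all genes, 9.45% were past 1.5-fold lower. Plin2, a coat protein of lipid droplets, stood at 505 and 698 CPM (0.47), and the cholesterol exporters Abca1 and Abcg1 at 137 and 202 CPM (0.56) and at 176 and 229 CPM (0.37). Lpl, lipoprotein lipase, stood at 81.5 and 44.8 CPM (-0.86), and Fabp4, a fatty acid carrier and known target of PPAR-gamma, at 177 and 150.4 CPM (-0.24). In B cells the ratio was 0.60 for Plin2 and -0.93 for Lpl, and Fabp4 stood at 143 and 71.6 CPM.

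Glycolysis genes had a median of -0.44 over 18 genes, with 1 past 1.5-fold higher, the glucose transporter Slc2a1, and 3 lower. The shares over all genes were 13.3% higher and 9.45% lower. Gapdh stood at 967 and 647 CPM (-0.58), Ldha at 247 and 164 CPM (-0.59) and Pgk1 at 166 and 86.0 CPM (-0.95). The list stood at -0.37 in the classical group, -0.67 in C1q macrophages and -0.36 in B cells. Survival and growth factor receptor genes had a median of -0.08 over 18 genes, with alternatives between -0.14 and 0.05. Mcl1, an anti-apoptotic protein, stood at 842 and 1044 CPM (0.31) and Il10ra, the IL-10 receptor, at 168 and 264 CPM (0.65). Bcl2a1b stood at 448 and 331 CPM (-0.44), against 64.9 and 43.0 CPM in the classical group, with the caution that the Bcl2a1 genes are close paralogs.

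**Figure D4:**
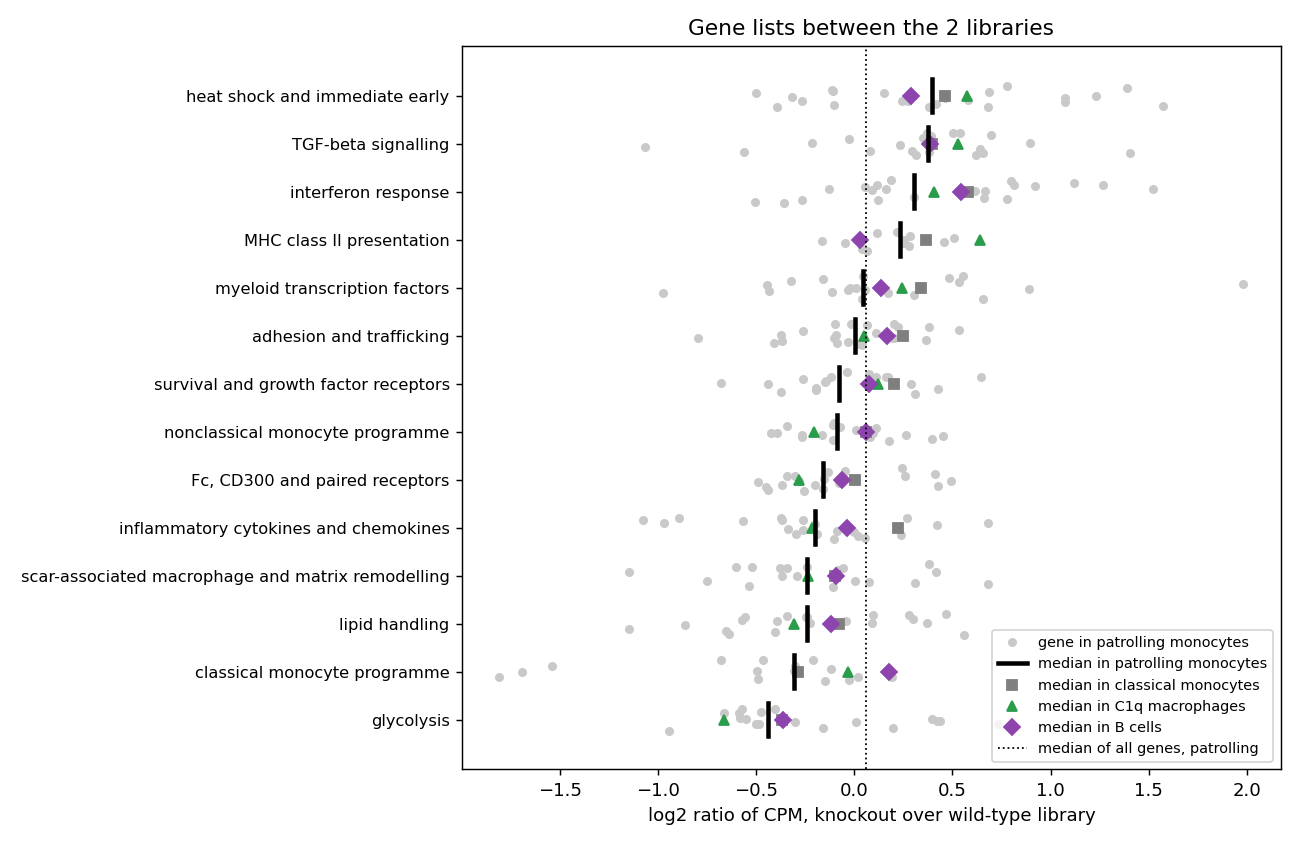
Log2 ratio of CPM, knockout over wild-type library (horizontal axis), for the genes of 14 lists (grey points, patrolling monocytes), with list medians in patrolling monocytes (black bars), classical monocytes (squares), C1q macrophages (triangles) and B cells (diamonds), and the median of all genes as a dotted line at 0.06. Heat shock (0.40), TGF-beta (0.37) and interferon (0.30) lists lie highest and glycolysis (-0.44) lowest in patrolling monocytes.

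A minority of members carried much antigen presentation RNA. Members with at least 20 UMIs of H2-Aa, H2-Ab1, H2-Eb1 and Cd74, a threshold set after the data were seen, numbered 33 of 697 (4.73%, 3.28 to 6.59) in the wild-type and 80 of 984 (8.13%, 6.499 to 10.02) in the knockout library. They held 75.7% and 69.1% of the members' UMIs of these genes. Their median depth was 12025 and 10466 UMIs, against 4602.5 and 5513 in the other members, so a fixed number of UMIs is more easily reached in them. The same threshold was met by 6.49% and 25.8% of the classical group and by 61.2% and 85.8% of C1q macrophages. In B cells it was met by 97.3% and 98.9%. The higher share in the knockout library was thus not particular to the members.

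In these MHC class II-rich members the genes of the label stood lower and genes known from dendritic cells higher, in both libraries. Spn stood at 38.1 CPM against 168 in the other wild-type members, and at 54.8 against 158 in the knockout library. Pecam1 stood at 97.6 against 880 CPM and at 187 against 1057 CPM. Ccr7, the receptor that leads dendritic cells to lymph nodes, stood at 448 against 10.6 CPM and at 346 against 23.6 CPM. Flt3, the dendritic cell growth factor receptor, stood at 114 against 2.72 CPM and at 64.5 against 5.18 CPM. Ciita, the master activator of MHC class II genes, stood at 90.5 against 3.32 CPM and at 87.1 against 3.07 CPM. By these markers the label did not hold for these cells as it did for the other members.

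Without the MHC class II-rich members the log2 ratio of the patrolling share was 0.28 (0.14 to 0.43). The MHC class II presentation list had a median ratio between libraries of 0.23 over 12 genes with all members and 0.52 without the rich ones, which were chosen by genes of this list. It was 0.11 without the highest doublet scores and 0.45 after thinning. In the classical group the median was 0.37, in C1q macrophages 0.64 and in B cells 0.03. Cd86, a costimulatory ligand, stood at 718.5 and 1021 CPM (0.51). Cd74, the invariant chain, stood at 1223 and 1326 CPM (0.12).

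**Figure D5:**
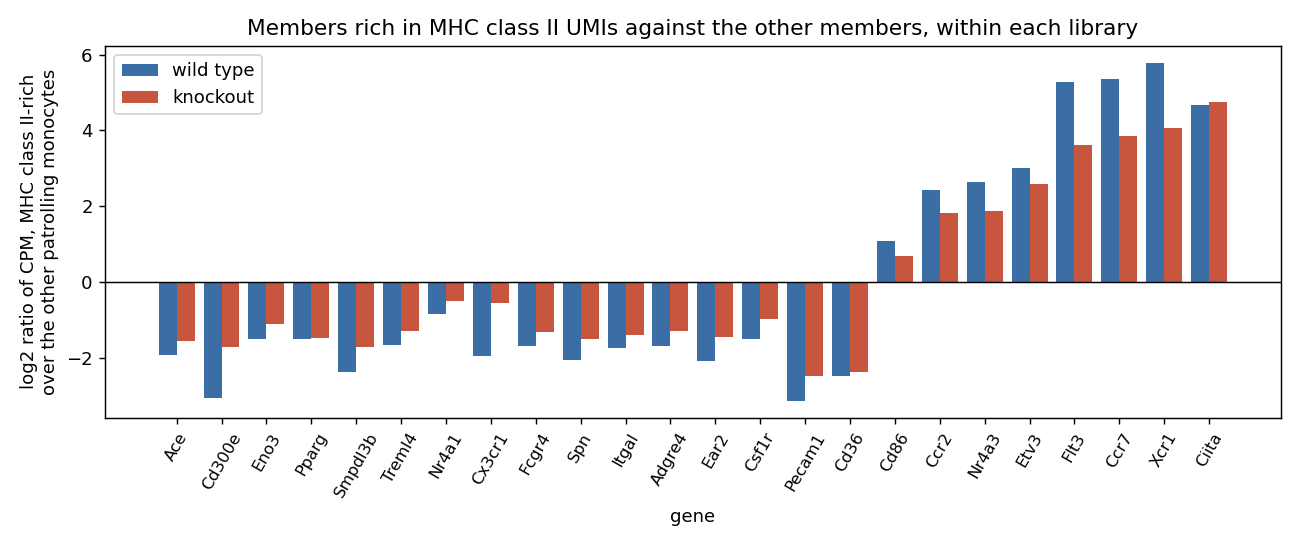
Log2 ratio of CPM in members rich in MHC class II UMIs over the other patrolling monocytes (vertical axis) for selecting genes, check genes and genes known from dendritic cells (horizontal axis), in the wild-type (blue, 33 cells) and knockout (red, 80 cells) libraries. The selecting and check genes lie below 0 in both libraries, while Ccr2, Nr4a3, Etv3, Flt3, Ccr7, Xcr1 and Ciita lie above it.

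Members varied with how many of the selecting genes were seen. Those with 2 such genes numbered 108 and 150, those with 3 genes 168 and 228, and those with 4 or more 421 and 606. Over these classes Spn stood at 67.2, 144 and 178 CPM in the wild-type library and at 65.7, 109 and 169 CPM in the knockout library. Pecam1 went the same way, at 504, 653 and 913 CPM and at 408, 791 and 1078 CPM. Ccr2 went the other way, at 118, 99.1 and 30.1 CPM and at 92.5, 66.1 and 23.3 CPM. Cd74 did so as well, at 4298, 1258 and 424 CPM and at 3459, 2149 and 599 CPM. Median depth over the classes was 4216, 3968 and 5037 UMIs and 4389, 5145 and 6102.5 UMIs, and the part of depth was not tested.

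A single Ly6c2 UMI, the most the rule allows, was present in 99 wild-type (14.2%) and 139 knockout members (14.1%). In the wild-type library these cells stood at 119 CPM of Ccr2 against 45.6 CPM in members without Ly6c2, and in the knockout library at 41.8 against 42.1 CPM. Plac8, which is abundant in classical monocytes, stood at 2243 against 1478 CPM and at 1641 against 1040.2 CPM. Pecam1 stood at 489 against 859 CPM and at 680.2 against 978 CPM. Spn hardly differed, at 141 against 156 CPM and at 141 against 143 CPM. Cells with the Ly6c2 UMI were also deeper, with medians of 5910 against 4594.5 and 6631 against 5524 UMIs.

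Markers of other cell types were measured in the members. The 9 neutrophil markers summed to 1889 and 1507 CPM, below the 2801 and 2645 CPM in B cells, and 20 and 25 members held at least 20 UMIs of S100a8 and S100a9. The 8 Kupffer cell markers summed to 336 and 190.4 CPM, against 324 and 172 CPM in B cells. The 8 NK cell markers summed to 91.2 and 87.0 CPM, against 131 and 51.4 CPM in B cells, and 10 and 12 members held at least 20 UMIs of NK genes. The 7 fibroblast and stellate cell markers summed to 164 and 154 CPM, against 130 and 154 CPM in B cells, and 2 and 3 members held 20 or more UMIs of collagen genes and Dcn. Without all of these, 32 and 39 members, the log2 ratio of the patrolling share was 0.34 (0.20 to 0.49).

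Of the other marker lists, type 1 conventional dendritic cell genes summed to 470 and 383 CPM in patrolling monocytes (B cells 577 and 658 CPM) and plasmacytoid dendritic cell genes to 71.1 and 69.1 CPM (79.7 and 90.6 CPM). Type 2 conventional dendritic cell genes summed to 217 and 309 CPM, above the 29.9 and 45.7 CPM in B cells, and Tnip3 made up 198 and 271 CPM of this. The other markers of this list had few UMIs: Ccl17 had 0 in wild-type and 34 in knockout members, Mgl2 6 and 62, and Cd209a 1 and 35. Of the Cd209a UMIs, 0 and 29 lay in the MHC class II-rich members. Erythroid genes, mostly haemoglobin, summed to 865 and 537 CPM, against 2069 and 171 CPM in B cells. T cell genes summed to 13.7 and 13.4 CPM, with Cd3d, Cd3e and Cd3g at 0 by the rule, and platelet genes to 19.6 and 11.6 CPM. Genes of cycling cells summed to 81.0 and 122 CPM in patrolling monocytes and to 532 and 499.9 CPM in the classical group. Cholangiocyte genes summed to 336 and 232 CPM, against 292 and 262 CPM in B cells, and Spp1 made up 302 and 208 CPM of this. Hepatocyte genes summed to 196 and 289 CPM, against 199 and 358 CPM in B cells. Endothelial genes summed to 870.03 and 1041 CPM, against 403 and 540 CPM in B cells, mostly from Pecam1. The part of these other cell types in the gene values was not tested.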

How the data were processed

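The deposited matrices hold raw UMI counts per gene and barcode and carry the software version Cell Ranger 7.0.1, per the file headers. The submitters' processing notes name Cell Ranger 3.1.0, Seurat and mm10. Libraries were Chromium 3′ v3, per the labels' protocols. The annotation, the treatment of introns and strand and the cell filter are not given in the sources used here.

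Members and gene lists were chosen with earlier results of these data known. Filtering took out 413 barcodes of the wild-type library and 149 of the knockout library. No doublet caller was applied to the main values. As an alternative the highest Scrublet scores (scanpy 1.11.5) were left out at 0.8% per 1000 barcodes, which took 35 and 40 members. The automatic threshold marked 0.0088% of wild-type barcodes and did not work there.

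UMIs were summed per group and library. Each log2 ratio sets knockout against wild type after 1 count was added to both sums. Genes needed 20 UMIs over both libraries. Intervals are Poisson for CPM, Clopper-Pearson for shares and conditional for ratios. The ratio intervals were tested on simulated Poisson counts, which hold no added spread between cells or animals, so coverage in real cells was not tested. C1q macrophages had over 10 C1q UMIs and a Csf1r UMI, and B cells at least 5 UMIs of Cd79a, Cd79b and Ms4a1. Named genes excluded rule, mitochondrial, ribosomal protein and haemoglobin genes. Between members and classical monocytes, the 12 extremes each way by the smaller of the libraries' ratios could be named, and any list gene. Of 32285 gene identifiers, 99.6% matched GENCODE M21 on GRCm38, which gave positions, spans and overlaps. Figures used matplotlib 3.10.9.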

Additional observations from a re-analysis of the deposited data

Results flagged for a closer look

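Slc7a11 stood on opposite sides in the 2 monocyte groups when granule-rich cells were kept in the classical group. Its log2 ratio, knockout over wild type, was -0.77 in patrolling monocytes (373 and 219 CPM) and 0.27 (0.07 to 0.47) in the classical group (144 and 174 CPM). In the classical group without cells rich in neutrophil granule genes it stood at 135 and 112 CPM, a log2 ratio of -0.26. The difference between the groups was not tested, with 1 library per genotype.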

How the results depend on the processing

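No paired analysis was possible because each genotype has 1 library and the labels give no shared replicate number. With 1 library per genotype no value has a replicate check, and leaving out a replicate was not possible. Intervals cover counting error only. Genes of few UMIs, such as Irf4 and Vcan, are the least precise.

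The 2 share ratios moved by less than their counting intervals in all 11 settings. For the share of monocytes, the interval held 0 without granule-rich classical cells (0.11, -0.03 to 0.26). The share of kept cells lay between 0.26 (with 500 genes needed and mitochondrial UMIs held to 10%) and 0.40 (5 selecting UMIs). Leaving out members rich in UMIs of other cell types, those rich in MHC class II UMIs or granule-rich classical cells was chosen after seeing the data. Of 140 list medians under these and the planned settings, 0 turned in direction beyond counting error and 16 moved past it. Scaling by the median of ratios lowers every log2 ratio by 0.06.

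With the highest Scrublet scores left out, the MHC class II median was 0.11 and the scar-associated one -0.12. At 5 selecting UMIs the inflammatory median was -0.31. After thinning, the interferon median was 0.63, heat shock 0.32, MHC class II 0.45 and scar-associated -0.070. The heat shock median was 0.34 with scaling by the median of ratios and 0.29 as a mean of per-cell CPM, which gave 0.43 for MHC class II. Without the 5 richest cells per gene the interferon median was 0.68 and MHC class II 0.44. That setting took 5 cells from each library, of 697 and 984 members, and kept the full totals. For genes of few UMIs it can remove a larger part of the wild-type sum. Without MHC class II-rich members the inflammatory median was -0.29, MHC class II 0.52 and scar-associated -0.37. Without members rich in other types the scar-associated median was -0.32. Of 387 gene values, 50 moved past counting error and 1 reversed: Ccr2 was 0.054 at 5 selecting UMIs. The cause of these moves was not tested.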

Other observations

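Of 19 scar-associated macrophage and matrix remodelling genes, 1 was past 1.5-fold higher in the knockout library and 3 lower. Over all genes the shares were 13.3% and 9.45%. The list had a median log2 ratio, knockout over wild type, of -0.24. This median was -0.070 after thinning and -0.12 without the highest doublet scores, and its alternatives reached -0.37. In the classical group the median was -0.10, in C1q macrophages -0.23 and in B cells -0.09. Spp1, osteopontin, stood at 302 and 208 CPM (-0.54, -0.65 to -0.42), near the 248 and 233 CPM in B cells, Lgals3, galectin-3, at 769.5 and 537 CPM (-0.52) and Cd9, a tetraspanin, at 522 and 442 CPM (-0.24). Cd9 stood at 119.6 and 159.95 CPM in classical monocytes.

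Mmp14, a membrane-bound collagenase, stood at 75.9 and 45.1 CPM (-0.75, -0.99 to -0.51), against 9.83 and 12.2 CPM in the classical group. Pdgfb, a mitogen of stellate cells, stood at 76.7 and 100.03 CPM (0.38, 0.18 to 0.59), against 5.11 and 8.91 CPM. Vegfa, an angiogenic growth factor, stood at 27.1 and 43.7 CPM (0.68, 0.35 to 1.03). Trem2, a lipid receptor of scar-associated macrophages, stood at 55.8 and 44.0 CPM, near the B cell levels.

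Among genes farthest above the classical group in both libraries, Zbtb16, a zinc finger factor known from innate-like lymphocytes, stood at 128 and 188 CPM against 13.8 and 17.4 CPM. Ikzf3, a lymphoid Ikaros factor, stood at 127 and 173 CPM against 9.83 and 13.7 CPM, and at 502 and 498 CPM in B cells. Heg1, a junctional membrane protein, stood at 518 and 620.3 CPM against 65.3 and 79.0 CPM, and at 373 and 501 CPM in B cells. Nrg1, a growth factor of the EGF family, and Thbs1, thrombospondin 1, lay farthest on the other side among genes not of neutrophil granules. Nrg1 stood at 6.97 and 8.15 CPM against 305 and 331 CPM, and Thbs1 at 32.7 and 51.8 CPM against 633 and 885 CPM. The granule genes Camp, Ngp, Elane, Ltf and Prtn3 were also at least 2-fold lower. Of these, Camp stood at 143 and 73.0 CPM in patrolling monocytes and at 128 and 64.0 CPM in classical monocytes once granule-rich cells were left out.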
